A study of Mus musculus with 16 samples.

Results

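The kidneys of mice that had lost tubular Vhl and had then been injured were compared with the kidneys of untreated mice, to see which transcripts lay near the untreated level and which lay away from it. The comparison was chosen by the sample titles: 5 arrays titled VHL-KO/AKI and 3 titled Control, which is 8 of the 16 arrays of the series, with 19938 genes tested. RNA came from a piece of kidney cut across, with 1 single-colour array for each labelled biological replicate. Body weights ran from 24 to 31 g, mice of both sexes were used, and strain and age were not given in the sources used here. Per the protocol, all mice carried transgenes that let doxycycline delete Vhl selectively from the renal tubule, with a Pax8-rtTA driver named in the design text. The genotype label nevertheless reads wild type for the mice that were not given the drug. Control mice were untreated. VHL-KO/AKI mice received doxycycline, 0.1 mg per 10 g of body weight, 4 days before they were killed. They also received 50% glycerol in a hind limb muscle, 0.05 ml per 10 g, and went without water for the 20 h that preceded the injection and the 24 h that followed it. AKI mice (5 arrays) had the glycerol and the water withdrawal without doxycycline, and VHL-KO mice (3 arrays) had doxycycline without injury. These last 2 groups served as reference points, and no group had doxycycline in mice that could not delete Vhl. The deletion is confined by its driver to tubule cells, so the whole-kidney RNA also holds cells that keep Vhl.

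The von Hippel-Lindau protein is the part of a ubiquitin ligase that recognises the hydroxylated alpha subunits of the hypoxia-inducible factors (HIF) and sends them for breakdown. Without it HIF accumulates in normal oxygen and switches on genes of glucose uptake, glycolysis, lactate export, angiogenesis and oxygen sensing. Glycerol in muscle causes rhabdomyolysis, in which myoglobin and its haem reach the kidney and injure chiefly the proximal tubule, the segment that reabsorbs most filtered solutes and depends on mitochondria for energy. An injured proximal tubule cell is known to lose its transporters and to express injury markers such as Havcr1 (kidney injury molecule 1) and Lcn2 (neutrophil gelatinase-associated lipocalin).

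Vhl itself was lower in the deleted and injured kidneys. Its log2 level was 7.03, 7.05 and 7.10 in the control arrays and 6.41, 6.35, 6.52, 6.66 and 6.54 in VHL-KO/AKI arrays 1 to 5, so the groups did not overlap. The difference was -0.56 (SE 0.0778, adjusted p = 0.000377, limma with Benjamini-Hochberg adjustment). In the AKI arrays the level was 7.01 to 7.36, and in the VHL-KO arrays its mean was 6.65. A whole-kidney RNA cannot tell fewer cells with a transcript from less transcript per cell, here or in any later result.

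The sex-linked transcripts did not match between the groups. Xist, the long RNA of the inactive X chromosome, was at 11.00, 11.19 and 10.23 in the control arrays and at 4.30 to 4.49 in the VHL-KO/AKI arrays. Uty, a Y-linked gene, was at 4.87 and 4.70 in controls 1 and 2, at 8.38 in control 3, and at 8.96 to 9.24 in the VHL-KO/AKI arrays. The AKI arrays were at 4.16 to 5.08 for Xist, near the VHL-KO/AKI arrays, and the VHL-KO arrays had a mean of 11.41, near the controls. Control 3 thus carried high levels of both. Because every deleted and injured array differed from every control in Xist, sex and the combined treatment cannot be told apart in the comparison with control, whereas the comparison with AKI is between arrays alike in this respect. When Xist less the average Y-linked level was added to the fit as a covariate, 0 genes passed the threshold against control in limma, 459 had an unadjusted p under 0.05, and the median standard error of a difference rose from 0.101 to 0.435. Against AKI, 602 genes still passed.

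**Figure D1:**
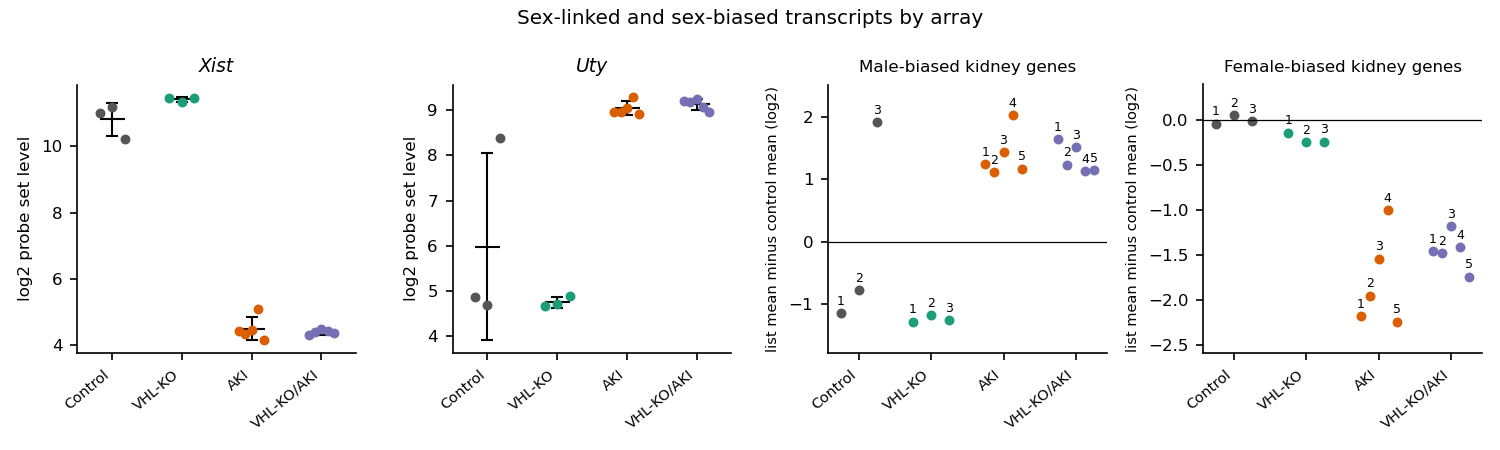
Log2 level of Xist and Uty, and mean of the male-biased and female-biased kidney gene lists relative to the control mean, for each array by group. Bars on the first pair of panels are the mean and SD, and numbers beside points are replicate numbers. Control 3 lies with the injured arrays for Uty and for the male-biased list (1.91 against -1.14 and -0.77 in controls 1 and 2) but with the controls for Xist.

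Genes known to differ between male and female mouse kidney also differed between the groups, and the male-biased list set control 3 apart from controls 1 and 2. Of 17 measured male-biased genes, 5 were higher in VHL-KO/AKI and 1 was lower, with a median difference of 0.82. Against control 3 alone the median was -0.59. Left without control 3, 13 of the 17 were called higher, and without control 1 or control 2 only 1 was. Acsm3, a medium-chain acyl-CoA synthetase, was at 5.35, 6.14 and 11.57 in the controls and at 10.93 to 11.73 in VHL-KO/AKI. Its difference of 3.77 (adjusted p = 0.0153) lost its call without control 1 (adjusted p = 0.108) or control 2. Cyp4a12a and Cyp4a12b, androgen-dependent fatty acid hydroxylases, behaved in the same manner, with control 3 at 12.44 and 12.30 and the other controls at 7.50 to 8.47. Of 11 female-biased genes, 6 were lower and 1 higher, with a median of -0.79. This list did not follow control 3 in the same manner. Against control 3 alone its median was -0.64, and without control 3, 7 members were lower. Its mean was -0.04, 0.05 and -0.01 in controls 1, 2 and 3, although the median difference of control 3 from the other controls was -0.47. Any gene named below that is on either list is marked as such, and sex was not tested apart from treatment for the others.

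Against control, 1510 genes were higher and 1528 lower in the deleted and injured kidneys. Together that is 3038 of 19938 genes, or 15.2% of those tested (7.57% higher and 7.66% lower), at an adjusted p under 0.05 in the limma fit. Counts of list members given below are to be read beside these shares. The median difference over all genes was 0.01, and 5559 genes had an unadjusted p under 0.05. The arrays of the 2 groups did not overlap for 5254 genes, 26.4% of all, and 2878 of the 3038 called genes were among them. The number called higher fell to 748 without control 1 and rose to 2124 without AKI 4, and the number called lower fell to 894 without control 2 and rose to 2088 without AKI 4. AKI 4 stood apart from its group: its mean correlation with the other AKI arrays was 0.973 against 0.988 to 0.989 for those, and on the first principal component (57.1% of the variance) it lay at 5.76 where the others lay at 36.48 to 42.79. Counts of genes called against AKI are therefore given with and without it where it changes them. Over all 19938 genes, leaving it out raised the calls against AKI from 495 to 1442 higher and from 279 to 942 lower. List counts without AKI 4 are to be read beside that general rise. Of the 174 genes chosen by the naming rule, 43 were called between VHL-KO/AKI and AKI. Over all genes 3.88% were, but the rule named some genes because of that call, so the 2 shares cannot be compared. Without AKI 4, 0 of the 43 lost the call or changed sign, and 29 other named genes gained it. For reference, 2632 genes were higher and 2968 lower in AKI than in control, and 95 and 10 in VHL-KO than in control. These comparisons share the 3 control arrays with the one described here.

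Each gene was then placed by its distance from control. A gene was away when it was called and differed by at least 2-fold, and near when the 95% confidence interval of its difference lay within 1.5-fold in either direction. Away held 579 genes (2.9%), 303 higher and 276 lower. Near held 14881 genes (74.6%), and 4478 genes (22.5%) had intervals too wide for either. Of the genes that AKI had moved by at least 2-fold, 7 were back near control and differed from AKI, and 41 had come part of the way back, that is, they were still away from control but called closer to it than in AKI. A further 42, the class beyond, were away from control and called to differ from AKI in the same direction, 40 of them higher than control. That class goes by direction and does not compare the distances of the 2 groups from control. The background for these is the comparison of VHL-KO/AKI with AKI, in which 774 genes, or 3.88%, were called (495 higher, 279 lower). Without AKI 4 that comparison called 1442 higher and 942 lower, and the classes held 27, 200 and 56 genes. Without VHL-KO/AKI 1 it called 175 higher and 54 lower, and the classes held 2, 12 and 25.

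The genes with large rises included markers of an injured tubule and acute phase genes. Havcr1, the phosphatidylserine receptor shed by injured proximal tubules, had a level of 6.02, 6.63 and 6.50 in controls and of 12.24, 12.50, 11.83, 12.64 and 12.78 in VHL-KO/AKI. The difference was 6.02 (SE 0.646, adjusted p = 5.03e-05, limma), a 64.7-fold rise and the largest of the 19938 genes. Krt20, an intermediate filament of injured epithelium, was at 4.45 to 4.59 in controls and at 9.37, 10.49, 9.41, 10.85 and 11.21 in VHL-KO/AKI, a difference of 5.73 (SE 0.538, adjusted p = 1.9e-05). The largest rises were chosen among genes whose control and VHL-KO/AKI arrays did not overlap, as held for 26.4% of all genes. For Krt20, arrays 1 and 3 were the lowest. Lcn2, an iron carrier secreted by the injured nephron, was at 8.24 to 8.42 in controls and at 12.81, 13.33, 12.60, 13.42 and 13.60 in VHL-KO/AKI, a difference of 4.85 (SE 0.238, adjusted p = 2.04e-08). In AKI these 3 genes stood 5.75, 6.44 and 5.13 above control, and their levels did not pass the test between VHL-KO/AKI and AKI (differences 0.26, -0.71 and -0.28). Without AKI 4 the Krt20 difference was -1.21 and passed (adjusted p = 0.0186), while Havcr1 and Lcn2, both at -0.45, did not.

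**Figure D2:**
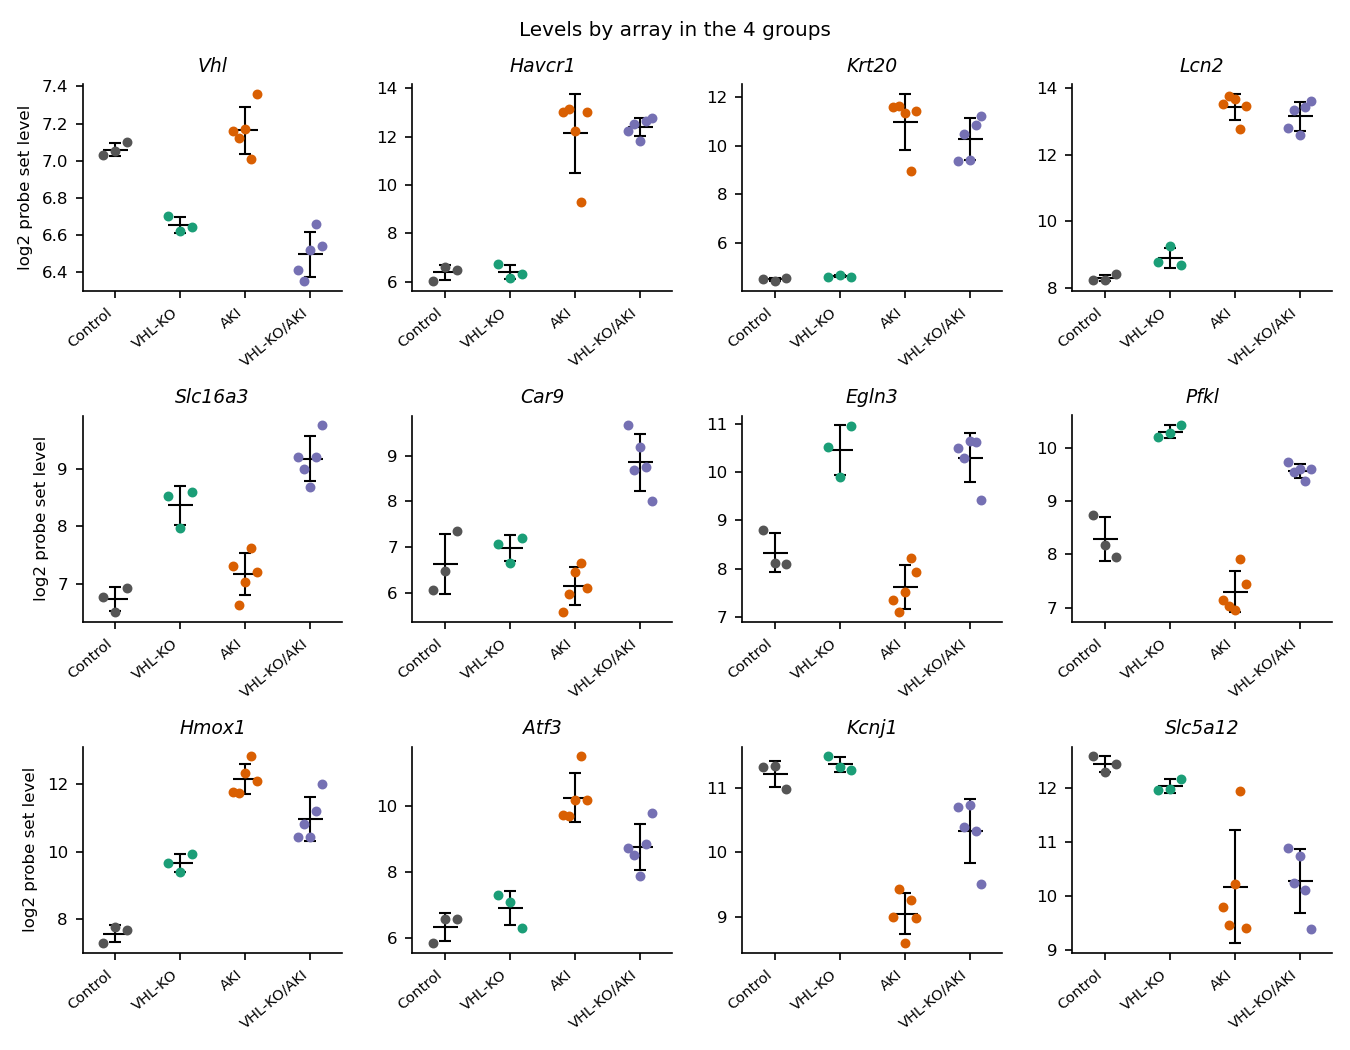
Log2 probe set level of 12 genes in every array (points), with the mean and SD of each group (bars), in Control (n = 3), VHL-KO (n = 3), AKI (n = 5) and VHL-KO/AKI (n = 5). Havcr1, Krt20 and Lcn2 are high in both injured groups, Slc16a3, Car9, Egln3 and Pfkl are highest or among the highest in VHL-KO/AKI and low in AKI, and Hmox1, Atf3 and Kcnj1 lie between control and AKI.

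Serpina3n, a secreted protease inhibitor of the acute phase, stood 4.71 above control (SE 0.423, adjusted p = 1.49e-05). Lrg1, a leucine-rich acute phase glycoprotein, stood 4.24 above control (SE 0.376, adjusted p = 1.41e-05). Fgg and Fgb, which encode fibrinogen chains, stood 4.29 and 4.14 above control (adjusted p = 0.00131 and 0.00573), and Fga stood 2.77 above it. Fgb ran from 8.59 in array 3 to 11.88 in array 5. Sprr2f, a small proline-rich protein of stressed epithelium, stood 4.15 above control, from 7.87 in array 3 to 11.54 in array 5 against 5.54 to 5.86 in controls. Fgb in AKI 4 was at 6.29, close to the controls, while the other AKI arrays were at 10.00 to 11.15. Timd2, a ferritin receptor on the male-biased list, stood 3.49 above control, with control 3 at 8.84 and the other controls at 5.94 and 6.27. Cpe, a carboxypeptidase that trims prohormones, was at 6.12, 6.14 and 7.41 in controls and at 9.70 to 10.28 in VHL-KO/AKI. Its difference was 3.41 (SE 0.267, adjusted p = 3.85e-06), and it lay 0.92 above AKI (adjusted p = 0.0404). That call against AKI was lost when any of 10 arrays was left out, with the highest adjusted p, 0.106, without AKI 3.

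Of 26 measured tubular injury markers, 18 were higher in VHL-KO/AKI than in control and 0 lower, with a median difference of 1.37 beside 0.01 over all genes. In AKI the median of the same list was 1.70. Against AKI itself 4 of the markers were lower in VHL-KO/AKI and 1 higher. Without AKI 4 these counts were 9 and 1, beside 942 and 1442 of all 19938 genes. The list mean differed among the deleted and injured arrays: it was 1.57, 1.98, 1.26, 2.18 and 2.39 above the control mean in arrays 1 to 5. Arrays 1 and 3 were the mildest and array 5 the most affected. AKI 4 was at 1.39 and the other AKI arrays were at 2.27 to 2.51. Array 3 lay below every AKI array, and only array 5 reached the range of the AKI arrays other than AKI 4.

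The genes with large falls included transporters, secreted proteins and enzymes. Slc7a12, an amino acid transporter on the female-biased list, had a level of 13.09, 13.00 and 12.38 in controls and of 7.89, 7.82, 8.45, 7.54 and 6.23 in VHL-KO/AKI. Its difference was -5.24 (SE 0.541, adjusted p = 3.84e-05), a 37.7-fold fall. Serpina6, the corticosteroid-binding globulin, was at 8.92, 11.57 and 9.95 in controls and at 4.70 to 5.20 in VHL-KO/AKI, a difference of -5.18 (SE 0.444, adjusted p = 9.44e-06). Igf2, a fetal growth factor, was at 10.06, 9.86 and 8.82 in controls and at 5.28 to 5.42 in VHL-KO/AKI, a difference of -4.24 (SE 0.233, adjusted p = 7.38e-08). Hdc, which makes histamine, fell by 4.11 on the log2 scale (SE 0.378, adjusted p = 1.67e-05). These falls were chosen among genes whose control and VHL-KO/AKI arrays did not overlap, as held for 26.4% of all genes. In AKI the same 4 genes stood at -6.43, -5.21, -4.22 and -3.63. The differences between VHL-KO/AKI and AKI were 1.20, 0.03, -0.02 and -0.48, and none of the 4 passed that test. Without AKI 4, Slc7a12 lay 1.68 above AKI and passed (adjusted p = 0.00515).

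Hao2, a peroxisomal hydroxyacid oxidase on the female-biased list, fell by 3.94 (adjusted p = 0.000799). Cyp2c23, an arachidonic acid epoxygenase, fell by 3.41 (adjusted p = 0.000386), and its mean in VHL-KO alone was 8.63, below the lowest control at 10.33. Abcc3, an organic anion exporter, was 9.83-fold lower, and Slc22a7, an organic anion uptake carrier, fell by 2.95, both on the female-biased list. Hpd, an enzyme of tyrosine breakdown, fell by 2.99, and Cpn1, the catalytic chain of carboxypeptidase N, fell by 2.78. Clec2h, a C-type lectin, fell by 2.78, with the controls at 9.02 to 9.70 and VHL-KO/AKI at 6.13 to 6.87.

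HIF target genes were read next. Of 43 measured HIF target genes, 21 were higher than control and 1, Car12, was lower, beside 7.57% of all genes called higher. The list median was 0.53 in VHL-KO/AKI, -0.02 in AKI and 0.51 in VHL-KO, each relative to the same 3 controls. Against AKI, 21 were higher and 0 lower (2.48% of all genes were called higher in that comparison), and without AKI 4 the number higher was 25. The list mean was 0.63, 0.57, 0.65, 0.68 and 0.76 above control in VHL-KO/AKI arrays 1 to 5. In the AKI arrays it was -0.04, 0.01, 0.12, 0.59 and 0.07 in order, so AKI 4 lay inside the range of the deleted and injured arrays, with its Vhl level at 7.01.

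Slc16a3 (the lactate exporter MCT4), Adm (the vasodilator peptide adrenomedullin) and Car9 (a cell surface carbonic anhydrase) were the 3 genes of the HIF target and glycolysis lists with the largest rises among those whose promoter held a HIF core motif. Slc16a3 is on the glycolysis list and the other 2 are on the HIF list. The 250 bases before their RefSeq start sites (GRCm38.p6, forward strand for each) are printed to show those motifs in their setting. Capitals mark ACGTG or GCGTG, the cores of the hypoxia response element, or their reverse complements CACGT and CACGC. The regions are chr11:120948817-120949066 for Slc16a3, chr7:110627407-110627656 for Adm and chr4:43506776-43507025 for Car9.
Slc16a3: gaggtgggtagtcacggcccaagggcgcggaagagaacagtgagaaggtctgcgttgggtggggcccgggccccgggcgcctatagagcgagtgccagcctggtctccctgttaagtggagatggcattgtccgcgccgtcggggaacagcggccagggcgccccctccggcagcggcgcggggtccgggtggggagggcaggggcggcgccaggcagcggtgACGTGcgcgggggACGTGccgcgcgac
Adm: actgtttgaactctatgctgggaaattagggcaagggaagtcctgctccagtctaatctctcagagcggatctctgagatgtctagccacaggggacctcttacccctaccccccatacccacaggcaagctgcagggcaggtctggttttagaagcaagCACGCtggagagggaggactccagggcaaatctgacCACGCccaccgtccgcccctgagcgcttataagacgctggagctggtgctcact
Car9: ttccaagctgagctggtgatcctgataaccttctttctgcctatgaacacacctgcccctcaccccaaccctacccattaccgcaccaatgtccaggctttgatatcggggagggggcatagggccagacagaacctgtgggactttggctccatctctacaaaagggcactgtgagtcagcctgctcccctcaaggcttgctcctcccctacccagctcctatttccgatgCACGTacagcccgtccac
The first base of the matches lay 27 and 14 bases before the start of Slc16a3, 90 and 54 bases before that of Adm and 18 bases before that of Car9. Searched on both strands over the 250 bases before each start, the core is common. It was in 38.6% of all 32851 promoters in the table and in 46.2% of those of measured genes. It was in 51.3% of the 300 promoters of genes higher than control by at least 2-fold. Of those genes, the ones also called higher than AKI had 35 promoters, 57.1% of which held it. These shares describe letters and do not show binding.

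Slc16a3 was at 6.78, 6.51 and 6.93 in controls and at 9.20, 8.99, 8.69, 9.21 and 9.76 in VHL-KO/AKI. It stood 2.43 above control (SE 0.232, adjusted p = 2.17e-05) and 2.00 above AKI (adjusted p = 9.49e-05), in which it was at 6.64 to 7.63. Adm was at 6.25 to 6.73 in controls and at 8.68, 8.56, 8.69 and 8.77 in VHL-KO/AKI arrays 1, 2, 4 and 5, with array 3 the highest, 2.31 above control (SE 0.209, adjusted p = 1.49e-05). Adm differs from Slc16a3 in that AKI also stood 1.63 above control, and VHL-KO stood 2.31 above it. Its excess over AKI, 0.68 (adjusted p = 0.0496), lost the call when any of 13 arrays was left out, with the highest adjusted p, 0.139, without VHL-KO/AKI 3. Car9 was at 6.06, 6.49 and 7.35 in controls and at 9.67, 8.69, 9.18 and 8.74 in VHL-KO/AKI arrays 1 to 4, with array 5 the lowest of the group but above every control. It stood 2.22 above control (SE 0.347, adjusted p = 0.000792) and 2.70 above AKI (adjusted p = 0.000216). With that sex-linked covariate the Car9 difference from control was -0.21 and did not pass the test. In VHL-KO alone Car9 stood 0.35 above control and did not pass the test (adjusted p = 0.908).

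Egln3, an oxygen-sensing prolyl hydroxylase that marks HIF for the Vhl protein, was at 8.80, 8.11 and 8.09 in controls and at 10.50, 10.28, 10.64, 10.62 and 9.43 in VHL-KO/AKI. It stood 1.96 above control (SE 0.315, adjusted p = 0.000973) and 2.67 above AKI (adjusted p = 9.99e-05), with array 5 the lowest. Egln1, its widely expressed relative, stood 0.53 above control and 0.85 above AKI, both called. Pdk1, the kinase that holds pyruvate back from the mitochondrion, stood 1.01 above control and 2.07 above AKI (adjusted p = 0.00259 and 9.01e-06). Bnip3, a mitophagy receptor, stood 1.43 above control and 1.78 above AKI. Ddit4, an inhibitor of mTOR signalling, stood 2.15 above control but 0.19 above AKI, a difference that did not pass the test, and AKI itself stood 1.96 above control. Angptl4 (an inhibitor of lipoprotein lipase) likewise stood 1.89 above control, with AKI at 2.12. Vegfa, the main angiogenic factor of the list, was 0.20 above control and did not pass (adjusted p = 0.651), and Epo was at -0.21 and did not pass. Car12, a carbonic anhydrase of the collecting duct, was the called fall at -1.41, with AKI at -1.95.

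Glycolysis turns glucose into lactate and yields energy without oxygen. Of 18 measured members, 10 were higher than control and 2 lower, with a median of 0.48 in VHL-KO/AKI, -0.07 in AKI and 0.60 in VHL-KO. Against AKI, 10 were higher and 0 lower, and without AKI 4, 11 were higher. Pfkl, the liver-type phosphofructokinase, was at 8.74, 8.18 and 7.95 in controls and at 9.73, 9.54, 9.61, 9.37 and 9.61 in VHL-KO/AKI. It stood 1.28 above control (SE 0.196, adjusted p = 0.0007), while AKI stood 0.99 below control, at a log2 difference of -0.99. The difference from AKI was 2.27 (adjusted p = 7.39e-06), with all 5 arrays above all 5 AKI arrays. Pfkp, the platelet-type phosphofructokinase, stood 1.72 above control and 1.42 above AKI (adjusted p = 0.000245 and 0.00143). Pfkm, the muscle-type enzyme, was the largest fall of the list at -0.79. Ldha, Pgk1, Pgam1 and Pkm stood 0.53, 0.65, 0.51 and 0.50 above control, and each passed the test against control and against AKI. Slc16a1, the lactate carrier MCT1, stood 1.29 above control with AKI at 1.74. Ldhb, the lactate dehydrogenase subunit of oxidative tissue, was at -0.42. The falls of Pfkm and Ldhb lost their calls when any 1 control or VHL-KO/AKI 2, 4 or 5 was left out.

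**Figure D3:**
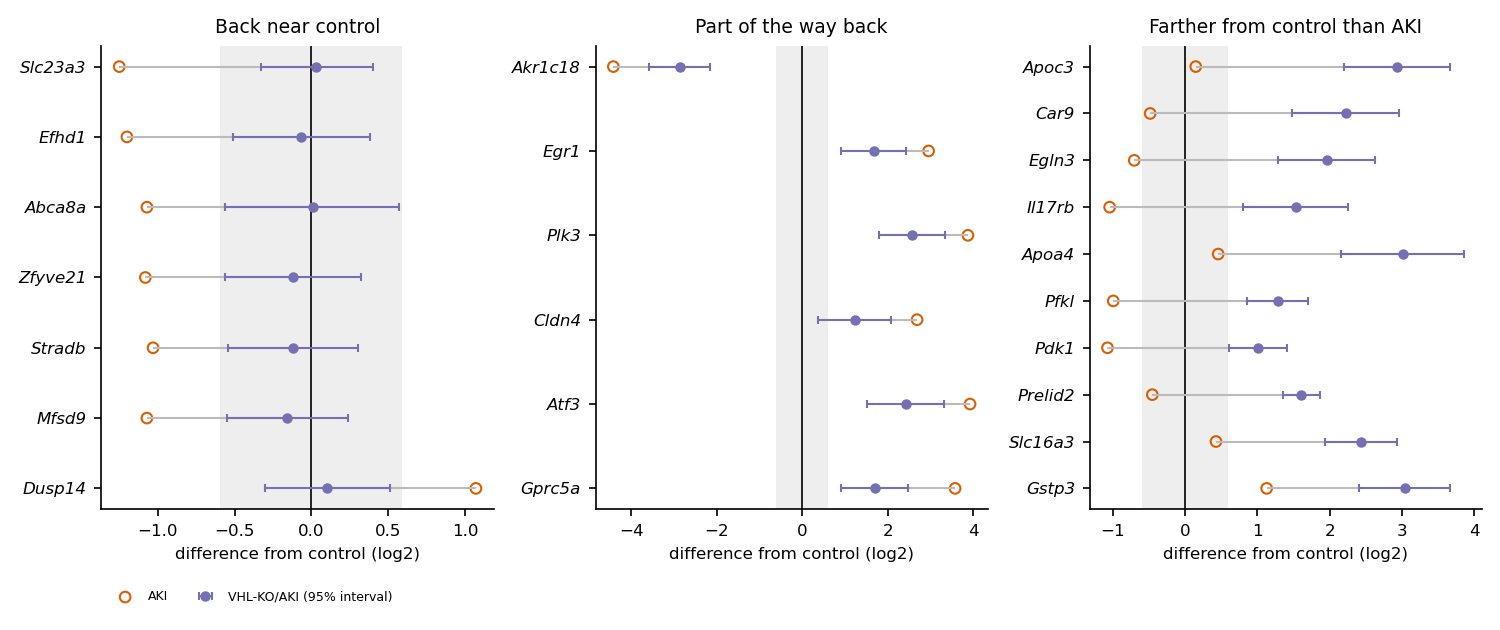
Difference from control on the log2 scale for the named genes that were back near control (left) or part of the way back (middle). The right panel holds named genes away from control and past AKI in the same direction, whatever the distance of AKI from control. Open circles are AKI, filled circles VHL-KO/AKI with the 95% confidence interval, and the grey band is the 1.5-fold zone around control. In the right panel Car9, Egln3, Il17rb, Pfkl, Pdk1 and Prelid2 lie below control in AKI and above it in VHL-KO/AKI.

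Other genes of the class away from control and past AKI in the same direction were not on the HIF list. Apoc3, an apolipoprotein that slows the clearance of triglyceride-rich particles, was at 8.24, 7.48 and 8.02 in controls and at 11.24, 10.79, 11.18, 11.03 and 9.97 in VHL-KO/AKI. It stood 2.93 above control and 2.78 above AKI (adjusted p = 0.000109 and 0.00015), and 2.01 above control in VHL-KO. Apoa4, another apolipoprotein, was at 6.68 to 7.03 in controls and at 10.46, 9.98, 10.33, 10.28 and 8.38 in VHL-KO/AKI, 3.01 above control and 2.55 above AKI (adjusted p = 0.00027 and 0.00128). In both genes array 5 was the lowest of the deleted and injured arrays and still lay above every AKI array. Il17rb, a receptor of the interleukin 17 family, stood 1.53 above control with AKI at -1.04. Prelid2, a relative of mitochondrial lipid transfer proteins, stood 1.61 above control with a narrow spread (8.89 to 9.13), AKI at -0.45 and VHL-KO at 1.58. Gstp3, a glutathione transferase, was at 5.26 to 5.84 in controls and at 8.14 to 8.72 in VHL-KO/AKI. It stood 3.04 above control (adjusted p = 2.33e-05) and 1.91 above AKI (adjusted p = 0.00114), whereas VHL-KO alone was at -0.12 and did not pass. Dcn, the matrix proteoglycan decorin, stood 1.13 above control and 0.69 above AKI (adjusted p = 0.00038 and 0.0153). Il17rb and Pdk1 were the 2 genes of the class that AKI had taken below control by at least 2-fold and that lay above control in VHL-KO/AKI.

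The genes that were back near control were few and mostly ones that AKI had lowered. Slc23a3, an orphan member of the ascorbate transporter family, was at 8.50, 8.20 and 8.14 in controls, at 6.57 to 7.40 in AKI and at 8.53, 8.12, 8.40, 8.56 and 7.96 in VHL-KO/AKI. It differed from control by 0.03 (95% interval -0.33 to 0.40) and from AKI by 1.28 (adjusted p = 0.000292), and no VHL-KO/AKI array overlapped with AKI. Efhd1, a calcium-binding protein of mitochondria, differed from control by -0.07 and from AKI by 1.13 (adjusted p = 0.00453). Zfyve21, Mfsd9 and Stradb differed from control by -0.12, -0.16 and -0.12 and from AKI by 0.96, 0.91 and 0.91. Abca8a, a lipid transporter, differed from control by 0.01 and from AKI by 1.08, a call that was lost without VHL-KO/AKI 1, 2 or 3 (highest adjusted p 0.0727, without array 3). Dusp14, a dual-specificity phosphatase, was the gene of the class that AKI had raised: it was at 8.93 to 9.13 in controls, at 9.69 to 10.39 in AKI and at 8.60 to 9.28 in VHL-KO/AKI. With the near zone widened to 2-fold, 80 genes met the rule.

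Immediate early genes, which stressed cells switch on within minutes, included members above control yet below AKI. Of 23 measured members, 12 were higher than control and 0 lower, with a median of 0.75 beside 1.49 in AKI. Against AKI, 7 were lower and 0 higher (1.4% of all genes were called lower in that comparison), and without AKI 4 the counts were 11 and 1. Atf3, a stress-induced transcription factor, was at 5.85, 6.58 and 6.57 in controls, at 9.69 to 11.52 in AKI and at 8.74, 8.51, 7.88, 8.86 and 9.80 in VHL-KO/AKI. It stood 2.42 above control (SE 0.426, adjusted p = 0.00169) and at -1.50 relative to AKI (adjusted p = 0.0378). Ccn1, a matricellular protein induced by injury, was at 7.52 to 7.94 in controls, at 10.00 to 10.65 in AKI and at 8.79, 9.16, 9.01, 9.30 and 9.87 in VHL-KO/AKI, 1.47 above control and at -1.20 relative to AKI (adjusted p = 0.000289 and 0.00195). Its VHL-KO/AKI arrays overlapped with neither group. Egr1 and Fosl1, also transcription factors, stood 1.67 and 2.38 above control and at -1.30 and -1.08 relative to AKI (adjusted p = 0.0334 and 0.0294). The call against AKI was lost for Atf3 without any of 9 arrays (highest adjusted p 0.109, without VHL-KO/AKI 3), for Egr1 without any of 7 (0.0962, without VHL-KO/AKI 1) and for Fosl1 without any of 5 (0.0851, without VHL-KO/AKI 1), and for Ccn1 without 0 arrays.

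Other genes were part of the way back to control. Gprc5a, a retinoid-induced receptor of epithelia, was at 6.36 to 7.25 in controls, at 10.02 to 10.67 in AKI and at 7.87, 8.37, 7.35, 8.95 and 9.49 in VHL-KO/AKI. It stood 1.70 above control and at -1.88 relative to AKI (adjusted p = 0.00605 for each). Akr1c18, which inactivates progesterone, was a fall that was part of the way back: controls were at 10.36 to 11.31, AKI at 6.09 to 7.38 and VHL-KO/AKI at 8.87, 7.55, 8.15, 8.04 and 7.37. It fell by 2.87 from control and lay 1.55 above AKI (adjusted p = 0.0107). Plk3, a stress-responsive polo-like kinase, stood 2.58 above control and at -1.31 relative to AKI. Cldn4, a tight junction protein, stood 1.23 above control (adjusted p = 0.0495) and at -1.46 relative to AKI, with array 1 (8.53) near the controls and array 5 (10.78) inside the AKI range. Socs3, a feedback inhibitor of cytokine signalling, and Hbegf, an EGF receptor ligand, stood 1.04 and 1.09 above control and at -0.98 and -1.21 relative to AKI. The calls against AKI were lost without any of 5 arrays for Plk3 (highest adjusted p 0.101), 6 for Cldn4 (0.0989), 5 for Socs3 (0.0662) and 6 for Hbegf (0.1). The calls against control were lost without any of 13 arrays for Cldn4 (0.141) and 6 for Hbegf (0.139).

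Myoglobin that reaches the tubule brings haem and iron, which oxidise cell components. Of 32 measured members, 17 were higher than control and 1, Slc40a1 (the iron exporter ferroportin), was lower, with a median of 0.46 beside 0.63 in AKI. Only 11 of the 32 met the rule for near, which 74.6% of all genes did. Hmox1, the enzyme that degrades haem, was at 7.28, 7.75 and 7.66 in controls, at 11.76 to 12.85 in AKI and at 10.43, 10.83, 10.45, 11.20 and 12.01 in VHL-KO/AKI. It stood 3.43 above control (SE 0.320, adjusted p = 1.89e-05) and at -1.18 relative to AKI (adjusted p = 0.0312). In VHL-KO alone it already stood 2.11 above control (adjusted p = 0.0148). The call against AKI was lost without AKI 3, AKI 5 or VHL-KO/AKI 1, 2 or 3 (highest adjusted p 0.0952). Blvrb, which encodes biliverdin reductase B, was at 7.33 to 7.77 in controls and at 10.18 to 10.35 in VHL-KO/AKI, 2.69 above control. For this gene AKI 4 was at 7.93 and the other AKI arrays at 9.39 to 10.56. Slc7a11, the cystine importer, stood 3.40 above control with a wide spread, from 6.56 in array 3 to 9.23 in array 5. Srxn1, a sulfiredoxin controlled by Nrf2, stood 2.20 above control. Without AKI 4, Slc7a11 and Srxn1 were called lower than AKI, at -1.40 and -1.09 (adjusted p = 0.0295 and 0.00229).

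The proteasome breaks down tagged proteins. Of 32 proteasome subunits and assembly factors measured, 27 were higher than control and 0 lower, with a median of 0.69 beside 0.70 in AKI and -0.02 in VHL-KO. The differences were moderate: Psmd14, Psmc6, Psma5 and Psma2, which are subunits of its lid, base and core, stood 1.39, 1.34, 1.21 and 1.09 above control. Against AKI 0 of the 32 passed the test in limma, and without AKI 4, 1 was lower. Of 24 ATF4 targets, which serve the response to amino acid and endoplasmic reticulum stress, 17 were higher and 0 lower, and without control 1 or control 3, 11 were. Asns, the asparagine synthetase, stood 2.09 above control, and Psat1, an enzyme of serine synthesis, stood 1.45 above it (adjusted p = 8.74e-05 and 3.23e-05). Of 24 heat shock genes, 11 were higher and 0 lower, and without control 1, 6 were. Hspb1, a small heat shock protein, stood 3.04 above control (adjusted p = 3.23e-05) with AKI at 3.15. Hsp90aa1 stood 1.27 above control. Of 25 ribosome assembly genes, 10 were higher and 0 lower, led by Gnl3 at 1.13. Without VHL-KO/AKI 2 or 4, 6 were, and without AKI 4, 15 were.

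**Figure D4:**
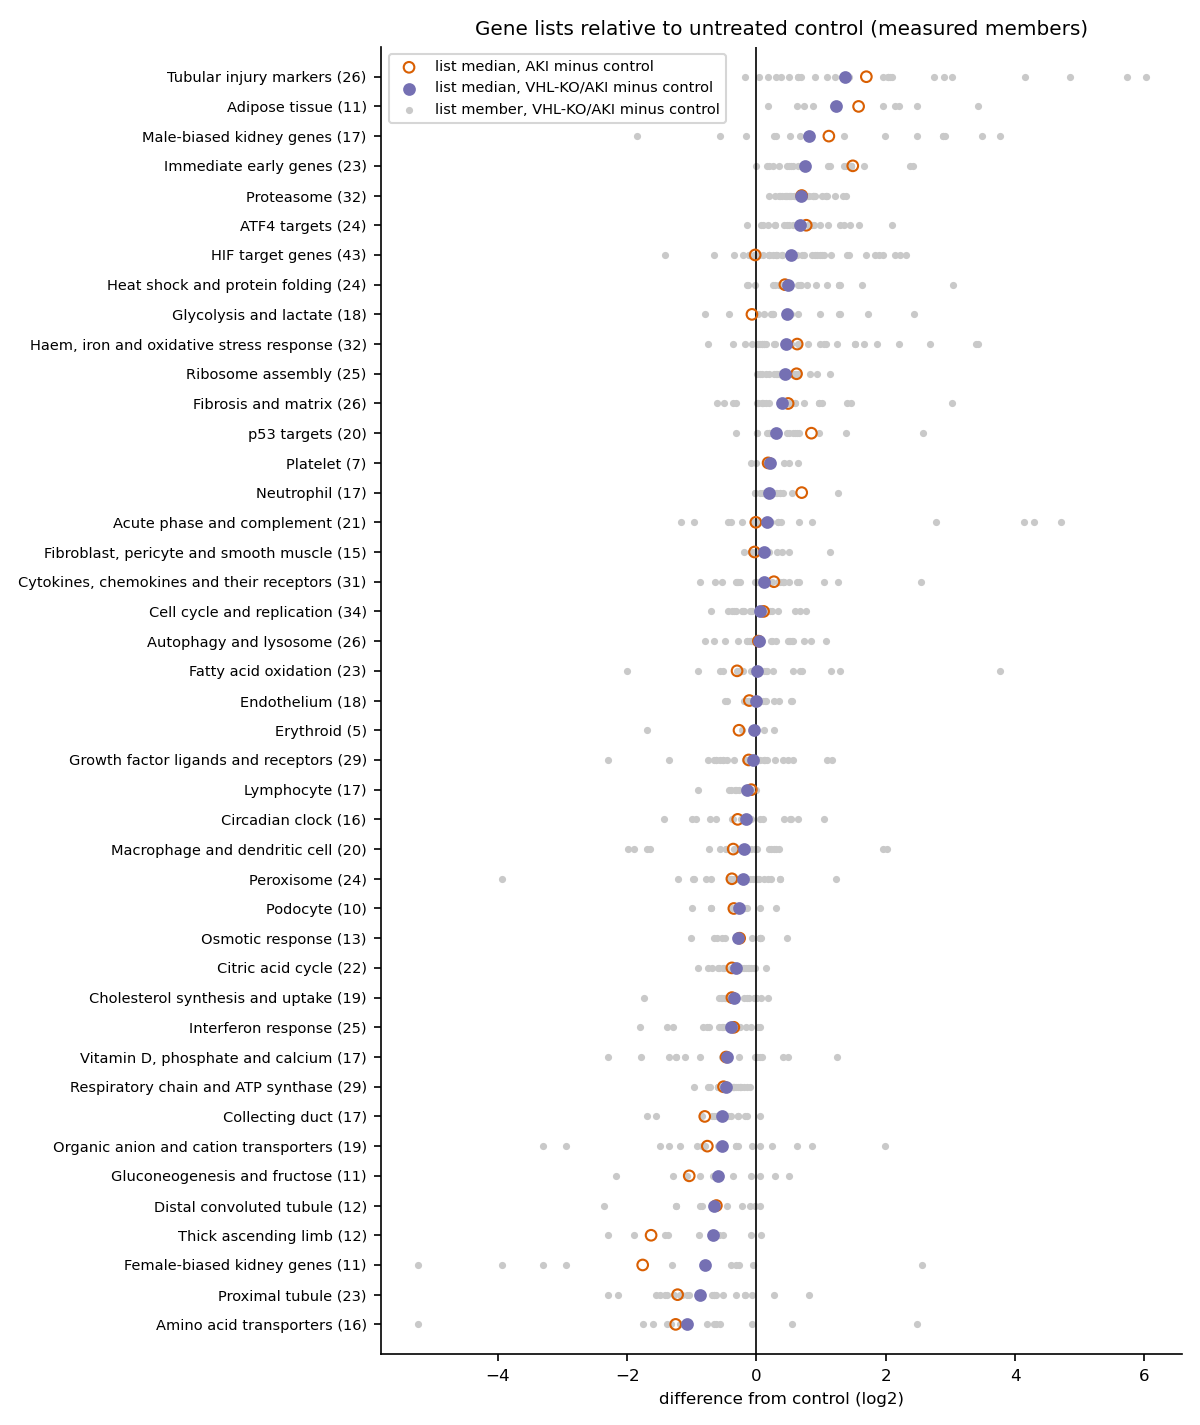
Difference from control on the log2 scale for 43 gene lists, ordered by the median in VHL-KO/AKI, with the number of measured members in brackets. Grey points are members in VHL-KO/AKI, filled circles their median and open circles the median of the same list in AKI, both against the same 3 control arrays. HIF target genes (0.53 against -0.02) and glycolysis (0.48 against -0.07) have higher medians in VHL-KO/AKI than in AKI, and the thick ascending limb list lies nearer to control (-0.67 against -1.63).

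The respiratory chain and the citric acid cycle supply most of the energy of the tubule. Of 29 respiratory chain and ATP synthase genes, 19 were lower and 0 higher, with a median of -0.47 beside -0.51 in AKI and -0.09 in VHL-KO. Without control 1 the number lower was 7. The falls were small, none of them reaching the 2-fold limit: Ppargc1a, a coactivator of mitochondrial biogenesis, was at -0.97 (adjusted p = 0.00662), Atp5o, a stalk subunit of the ATP synthase, at -0.75 and Ndufs8, a subunit of complex I, at -0.72. Of 22 citric acid cycle genes, 9 were lower and 0 higher, and without control 1, 3 were. Sdhb and Sdhc, subunits of succinate dehydrogenase, were at -0.75 and -0.69. Sdhc was at 11.48 to 11.49 in the controls and at 10.64 to 10.96 in VHL-KO/AKI. Against AKI, 1 respiratory chain gene was lower, Cycs (cytochrome c) at -0.45, and 0 citric acid cycle genes passed. Without AKI 4, 6 respiratory chain genes and 5 citric acid cycle genes were higher than AKI, beside 1442 of all 19938 genes.

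Fatty acid genes split. Of 23 fatty acid oxidation genes, 6 were higher and 2 lower than control, with a median of 0.01 beside -0.30 in AKI. The largest of the rises, at 3.77, was Acsm3, which is on the male-biased list. Acot2, a mitochondrial acyl-CoA thioesterase, was at 10.62 to 11.00 in controls and at 11.81 to 12.41 in VHL-KO/AKI, a difference of 1.30 (adjusted p = 0.000549). Acsm1, a medium-chain acyl-CoA synthetase, fell by 2.01 (adjusted p = 0.000112). The number higher was 2 without control 1, and the number lower was 4 without AKI 4. Of 24 peroxisome genes, 6 were lower and 2 higher. The largest of the falls, at -3.94, was Hao2, which is on the female-biased list. Pex11a, which drives the division of peroxisomes, stood 1.23 above control, with array 3 at 11.20 and the others at 10.21 to 10.46. The number lower was 2 without control 1 and 10 without AKI 4.

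Markers of the nephron segments were read in order along the tubule. Of 23 proximal tubule genes, 14 were lower and 0 higher than control, with a median of -0.88 beside -1.22 in AKI, and without any 1 control the number lower was 9. Without control 3, 2 were called higher. Kap and Cyp2e1 were put on both this list and the male-biased list. Slc34a3, a sodium phosphate cotransporter, was at 9.78 to 9.84 in controls and at 7.69, 7.19, 7.99, 7.13 and 7.61 in VHL-KO/AKI, a difference of -2.29 (adjusted p = 0.0026). Gatm, an enzyme of creatine synthesis, fell by 2.14, and Slc5a12, a lactate and pyruvate carrier from the gluconeogenesis list, fell by 2.17 (adjusted p = 0.0056 for each). Slc5a12 was at 9.38 in array 5 and at 10.12 to 10.89 in the other arrays, and in AKI 4 it was at 11.95, close to the lowest control at 12.30. Slc22a8, an organic anion carrier, fell by 1.49. Of 16 amino acid transporters 11 were lower, with a median of -1.08, and without control 1 or 2, 7 were. The largest of the falls, at -5.24, was Slc7a12 of the female-biased list. Slc7a8 and Slc6a19, neutral amino acid carriers, stood at -1.75 and -1.60. Of 19 organic ion transporters 9 were lower and 0 higher, with Abcc3 of the female-biased list the lowest at -3.30. Against AKI 0 of the 23 proximal tubule genes and 0 of the 16 amino acid transporters passed the test with all arrays. Without AKI 4, 12 of the proximal tubule genes and 7 of the transporters were higher than AKI, beside 1442 of all 19938 genes.

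Some thick ascending limb markers lay between control and AKI. Of 12 measured markers 4 were lower than control, with a median of -0.67 beside -1.63 in AKI. The number lower was 2 without control 1 or control 2, and 6 without AKI 4. Against AKI 3 were higher and 0 lower, and without AKI 4, 8 were higher, beside 1442 of all 19938 genes. Kcnj1, the potassium channel ROMK, was at 11.32, 11.35 and 10.99 in controls, at 8.59 to 9.43 in AKI and at 10.71, 10.40, 10.74, 10.33 and 9.51 in VHL-KO/AKI. Its arrays lay between both groups without overlap, at -0.89 from control (adjusted p = 0.0199) and 1.28 above AKI (adjusted p = 0.0045). The call against control was lost without control 1 (adjusted p = 0.0837) or control 2. Tmem72, a kidney membrane protein, was at -0.61 from control and 0.71 above AKI. Cldn10, a claudin of this segment, was at -0.58 from control, which did not pass, and 1.30 above AKI, which did. Bsnd, the barttin subunit of its chloride channels, fell by 1.89 from control. Egf, which this nephron region secretes, was at -2.30 and did not pass. The list mean in arrays 1 to 5 was -0.53, -0.87, -0.54, -0.96 and -1.64, so array 5 lay among the AKI arrays, which were at -1.57 or lower apart from AKI 4 at -0.85.

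Of 12 distal convoluted tubule markers, 8 were lower and 0 higher than control, with a median of -0.66 beside -0.62 in AKI. Klhl3, part of the ligase that controls the WNK kinases, was at 8.59 to 9.08 in controls and at 7.28 to 7.85 in VHL-KO/AKI, a difference of -1.25 (adjusted p = 3.23e-05). Pvalb, a calcium buffer of this segment, fell by 2.36. Of 17 collecting duct markers, 8 were lower and 0 higher, with a median of -0.53. Slc4a1, the anion exchanger of acid-secreting cells, fell by 1.69, and Slc26a4, the exchanger pendrin, by 1.55. Gata3, a transcription factor of the duct, was at -0.69. Of 17 genes of vitamin D, phosphate and calcium handling, 6 were lower and 2 higher. Kl, the klotho coreceptor of FGF23, was at 11.59 to 11.70 in controls and at 9.78 to 10.69 in VHL-KO/AKI, a fall of 1.36 (adjusted p = 0.0152) that lost its call without control 1 (adjusted p = 0.0575) or control 2. Slc20a1, a widely expressed phosphate transporter, was 2.39-fold above control.

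Immune cell markers moved in different ways, beside 7.57% of all genes called higher and 7.66% lower than control. Of 17 neutrophil markers 0 passed the test in either direction against control, with a median of 0.19 beside 0.70 in AKI. Against AKI 3 were lower, and without AKI 4, 4 were, beside 942 of all 19938 genes. Retnlg, a neutrophil resistin-like protein, was at 4.94 to 5.04 in controls and at 5.39, 5.62, 5.26, 7.13 and 7.87 in VHL-KO/AKI, so arrays 4 and 5 were the high ones (adjusted p = 0.127). The list mean was 0.47 and 0.54 in arrays 4 and 5 and 0.08 to 0.16 in the others. Of 20 macrophage and dendritic cell markers 5 were lower and 2 higher. Away from control were 6 (2.9% of all genes were), and 3 met the rule for near (74.6% of all genes did). Cd14 and Cd68, which mark monocytes and macrophages, stood 2.02 and 1.95 above control (adjusted p = 0.000855 and 0.0058). H2-Aa and H2-Ab1, chains of the class II antigen-presenting molecule, stood at -1.90 and -1.99, and without control 2 the number of lower markers was 2 and H2-Aa lost its call (adjusted p = 0.0568). Controls 1 and 2 differed in H2-Ab1 (9.95 and 12.08). Of 31 cytokine and receptor genes 4 were higher and 1 lower, and without AKI 4, 7 were higher and 2 lower. Il34, a ligand of the macrophage CSF1 receptor, stood 2.54 above control (adjusted p = 8.71e-05), and Osmr, the oncostatin M receptor, 1.26. Of 25 interferon-response genes 0 were higher and 2 lower, without control 1, 9 were lower, and without control 2 or control 3, 1 was. Of 17 lymphocyte markers 2 were lower, 5 without VHL-KO 1, and 0 without control 2 or VHL-KO/AKI 2, 4 or 5.

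**Figure D5:**
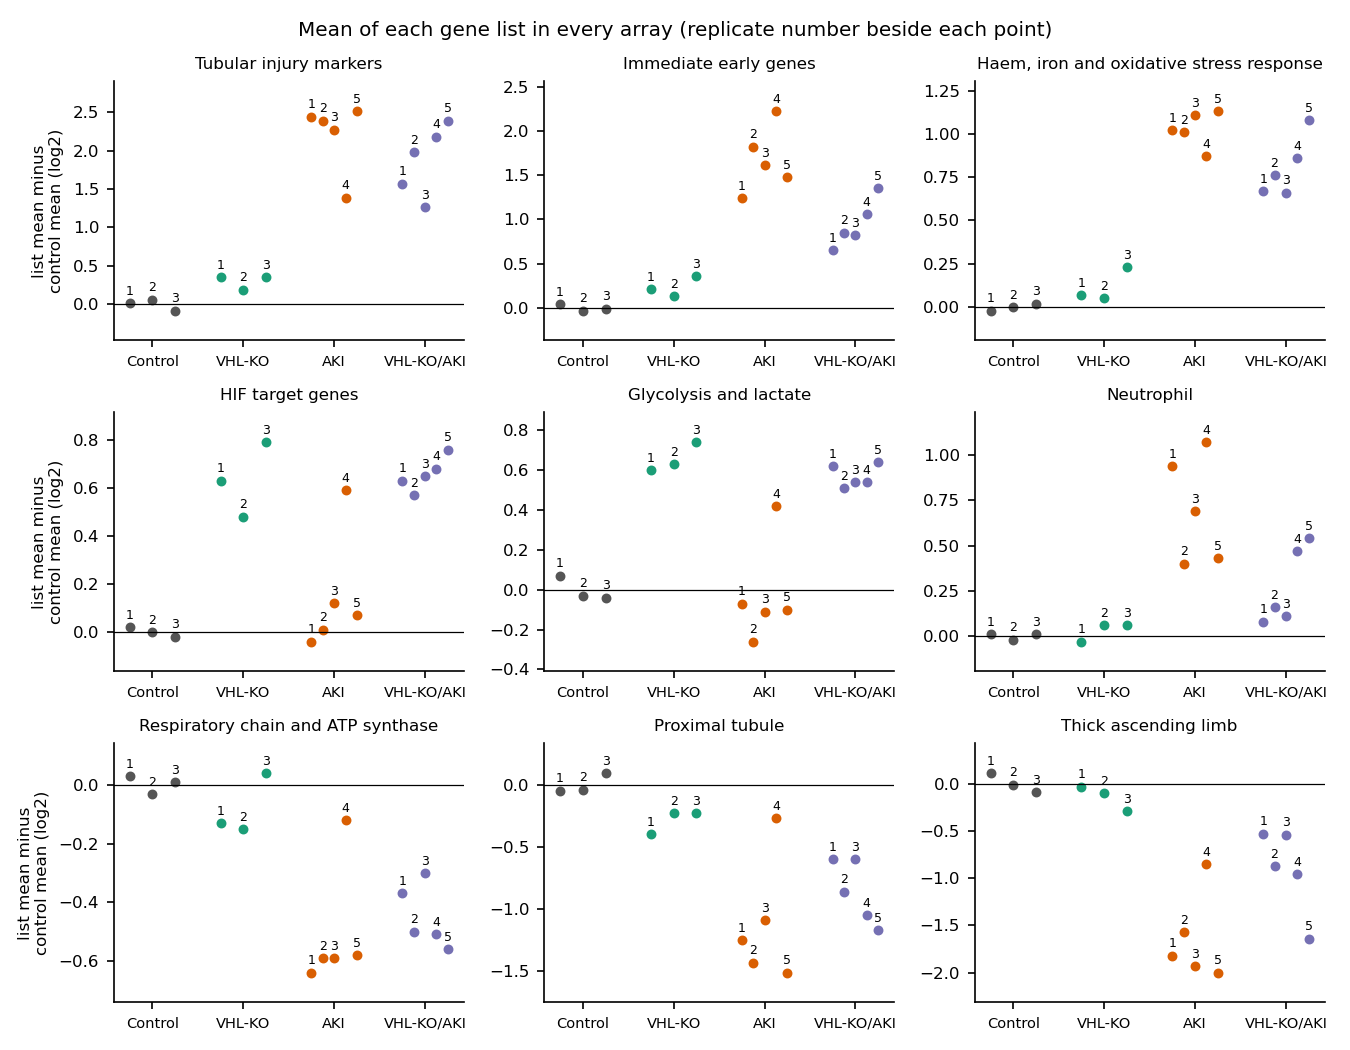
Mean of 9 gene lists in each array relative to the control mean on the log2 scale, by group, with the replicate number beside each point. Within VHL-KO/AKI, array 5 is highest for injury markers (2.39) and lowest for the proximal tubule (-1.17) and the thick ascending limb (-1.64), while HIF target genes run from 0.57 to 0.76. AKI 4 lies at 0.59 for HIF target genes, where the other AKI arrays lie between -0.04 and 0.12.

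The 5 deleted and injured arrays were not alike. On the first principal component they lay at 1.96, 11.88, -1.03, 20.52 and 32.12, in order, between the controls (-41.87 to -33.94) and the 4 AKI arrays other than AKI 4. Proximal tubule list means were -0.60, -0.86, -0.60, -1.05 and -1.17, and immediate early means were 0.65, 0.85, 0.82, 1.06 and 1.35. Glycolysis means were 0.62, 0.51, 0.54, 0.54 and 0.64. Arrays 1 and 3 were thus the nearest to control for the tubule lists, and array 5 the farthest. Array 5 also had the highest mean of the 5 for the HIF target list (0.76) and the glycolysis list (0.64). These are descriptions of 5 arrays without a test.

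Over all genes, 7.57% were called higher and 7.66% lower than control, and the counts here are to be read beside those shares. Of 34 measured cell cycle genes 2 were higher and 1 lower, 24 met the rule for near (74.6% of all genes did), and the median was 0.05. The number higher was 1 without control 1 and 3 without VHL-KO 2 or VHL-KO/AKI 3. Pcna, the sliding clamp of replication, stood 0.77 above control (adjusted p = 0.00172) with AKI at 1.02. Of 20 p53 targets 3 were higher and 0 lower, with a median of 0.31 beside 0.85 in AKI. Without control 1 the number was 1, and without AKI 4 it was 5. Of 26 fibrosis and matrix genes 11 were higher and 1 lower, and without control 3, 4 were higher. Timp1, an inhibitor of matrix proteases, was at 5.49 to 5.58 in controls and at 8.14, 8.95, 7.44, 9.03 and 9.20 in VHL-KO/AKI, 3.03 above control (adjusted p = 0.00993). Ccn2, a connective tissue growth factor, stood 1.01 above control, with VHL-KO at 0.98. Of 16 clock genes 4 were lower and 0 higher. Without control 1, 1 was lower, and without AKI 4, 3 were higher. Nr1d1, a repressor of the clock, fell by 1.00 (adjusted p = 0.000531). Times of tissue collection were not given in the sources used here. Of 19 cholesterol genes 3 were lower, and without AKI 4, 7 were. Cyp51, a sterol demethylase, fell by 1.74.

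Markers of tissue that borders the kidney were also read, beside 7.57% of all genes called higher and 7.66% lower. Of 11 adipose genes 7 were higher and 0 lower, with a median of 1.23 beside 1.58 in AKI and -0.01 in VHL-KO. Cidec, a lipid droplet protein, was at 5.53, 6.66 and 5.52 in controls and at 7.91, 9.60, 9.55, 9.56 and 10.07 in VHL-KO/AKI, 3.43 above control (SE 0.422, adjusted p = 0.000149). Adipoq, the fat cell hormone adiponectin, stood 2.48 above control (adjusted p = 0.00247), from 7.35 in array 1 to 9.09 in array 2, and Retn, resistin, 2.14. Control list means ran from -0.24 to 0.36. Of 12 adrenal genes 0 passed in either direction, and all 12 met the rule for near (74.6% of all genes did). Of 12 skeletal muscle genes 1 was lower: Pvalb, which the distal convoluted tubule also expresses. Of 18 endothelial genes 1 was higher, Flt1 at 0.55, and 1 lower, Kdr at -0.49, both receptors of Vegfa. The Flt1 call was lost without any 1 control (highest adjusted p 0.075, without control 3), and the Kdr call without control 2 (adjusted p = 0.0501). Of 10 podocyte genes 3 were lower and 0 higher, and without control 1 or 2, 1 was. The part of adipose tissue in the results was not tested.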

How the data were processed

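Kidney RNA of 16 mice was measured on whole-transcript arrays, and the deposited series table holds log2 probe set levels (3.34 to 14.71). Partek 6.4 and RMA, a background correction, normalisation and summary method, are named in the submitters' processing notes. No build or settings were named in the sources used here. Array medians (5.92 to 6.03) were left as they were. Of 35556 probe sets, 21789 had exactly 1 gene symbol, 1621 several and 12146 none, per GEO's platform annotation. Where a gene had several probe sets (999 genes) the one with the highest mean stood for it, which left 19938 genes. No 2 arrays were identical (0 pairs). For arrays the number of samples limits the precision.

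Groups came from the sample titles. limma 3.58.1 under R 4.3.3 fitted 1 mean per group over the 16 arrays (12 residual and 2.83 prior degrees of freedom). 2-sided p-values were adjusted over all genes by the Benjamini-Hochberg method, with 0.05 as the limit for a call. The SE is that of the fit. Whether replicates came from separate mice is said only by the word biological in their titles. The p-values set a difference of group means against the spread between these arrays, pooled over all 16, AKI 4 among them. The fit was tested on simulated data.

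The members, the 46 gene lists (994 members, 915 measured, older names read as synonyms only where no current gene bears them) and the rules were chosen with earlier results of these data known. Named genes are Vhl, the 12 largest rises and 12 largest falls among called genes without overlap, predicted, olfactory and sex chromosome genes left out, up to 4 called members of each list (2 with the smallest p where none was called), and up to 10 returned, 10 beyond and 6 partly returned genes. Further list members, named after their values were seen, are Egln1, Bnip3, Angptl4, Vegfa, Epo, Car12, Pfkm, Ldha, Ldhb, Cycs, Pgk1, Pgam1, Pkm, Cldn10, Egf and Slc40a1. Promoters are from RefSeq (GRCm38.p6). Alternatives covered the probe set rule, a filter on dim genes, centring, quantile and cyclic loess scaling, trended variance, array weights, the compared groups alone, a replicate block, the sex-linked level, each array left out, a fold limit and the width of the near zone. Comparisons of gene lists with AKI without AKI 4, and of list medians with control 3 alone, were added after the data were seen.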

Additional observations from a re-analysis of the deposited data

Results flagged for a closer look

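In groups of 4 to 10 arrays, 220 sets of values were read for an array far from the others, and 10 had a gap larger than Dixon's 95% limit. Chance gives about 1 in 20 such sets.

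Of the list means relative to control, fatty acid oxidation was 0.48 in VHL-KO/AKI 3 and 0.03 to 0.13 in the other 4 arrays. The collecting duct mean was -0.89 in array 5 and -0.55 to -0.44 in the others. The platelet mean was 0.08 in array 3 and 0.28 to 0.33 in the others. The adipose mean was 0.73 in array 1 and 1.59 to 1.92 in the others.

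Of the named genes, Apoa4 was at 8.38 in array 5 against 9.98 to 10.46, and Cpn1 at 7.18 in array 5 against 8.27 to 8.70. Cidec was at 7.91 in array 1 against 9.55 to 10.07. Dusp14 was at 8.60 in array 3 against 9.19 to 9.28, Pex11a at 11.20 in array 3 against 10.21 to 10.46, and Srebf2, the master regulator of sterol synthesis, at 8.11 in array 3 against 8.30 to 8.34. Causes were not tested.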

How the results depend on the processing

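Counts moved with the arrays used and with the sex-linked level. Leaving out 1 array gave 748 to 2124 genes higher and 894 to 2088 lower than control, 175 to 1442 higher and 54 to 942 lower than AKI, 470 to 656 away, 13933 to 15505 near, 2 to 27 returned, 12 to 200 partly returned and 25 to 56 beyond. With the sex-linked covariate 0 genes were called against control in either direction, 0 were away, returned, partly returned or beyond, and 379 were near. Array weights gave 2366 higher and 2481 lower than control, 1687 higher and 1181 lower than AKI, 27 returned and 177 partly returned. Fitting the compared groups alone gave 182 higher and 41 lower than AKI, 4 returned and 9 partly returned. Quantile and cyclic loess scaling each gave 4 returned. Without dim genes 8357 were near. A narrower near zone gave 9014 near and 0 returned, and one of 2-fold gave 80 returned. A limit of 2-fold as well gave 303 higher and 276 lower than control and 63 and 28 against AKI.

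The replicate block gave 988 genes higher than control. Deviations of same-numbered arrays from their group means had correlations of -0.06, 0.11 and 0.04 for control, and -0.38 to 0.17 for AKI. Deviations from the means of so few arrays cannot decide whether the numbers pair the mice. The block ended the call against control for 20 of the named genes.

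With the sex-linked level in the fit, 20 named genes turned direction against control: Acsm3 -9.27, Aqp4 0.78, Calb1 0.01, Car9 -0.21, Cdkn1c 0.72, Cdt1 -0.20, Cyp4a12a -7.41, Cyp4a12b -6.46, Eif2s3y -4.56, Idh2 0.10, Kdm5d -1.70, Nkg7 0.13, Npc1 -0.36, Ppp1r1a 0.43, Slc14a1 0.15, Slc6a12 0.66, Tgfb2 0.32, Timd2 -3.89, Tnfrsf10b -0.24 and Uty -5.19. None of these 20 differences passed in that limma fit (lowest adjusted p 0.389, for Uty). Uty, Eif2s3y and Kdm5d are the Y-linked part of the covariate, so their turn was built in. The covariate separates every VHL-KO/AKI array from every control, so the signs cannot settle a direction. A further 141 named genes lost their call, and 4 lost it against AKI. The other scalings and row rules ended the call against control for at most 4 named genes each, and turned 0.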
